A study of Caenorhabditis elegans with 2 samples.

Results

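RNA polymerase III (Pol III) was mapped at the starts of protein-coding genes in whole young adult Caenorhabditis elegans by ChIP-seq of RPC-1, its largest subunit. Of the 2123 peaks in the authors' optimal list, 284 overlapped a window of 500 bp either side of an annotated protein-coding transcript start and touched no non-coding gene or pseudogene, with small RNA genes widened by 100 bp. These peaks shared 253 of the list's 1857 distinct intervals, some of which overlap each other. An interval held 1 summit in 223 cases, 2 summits in 29 and 3 in 1. In 169 intervals (66.8%, Wilson 95% interval 60.8 to 72.3) a summit lay inside the window, and the other 84 reached it only with an edge.

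Both libraries came from strain YL517, in which RPC-1 carries GFP and FLAG at its C-terminal end, and each was made from pooled males and females. They form 1 group of 2 biological replicates with separate biosample records, and the labels do not say whether the cultures were independent. Sonication sheared the chromatin. The antibody and strain labels name rpc-1, while 1 free-text label names PRC-1. No untagged or input library was analysed here. Whole worms were used, so a site bound in few cells and a site bound weakly in many cannot be told apart.

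Pol III transcribes tRNA genes from promoter elements that lie inside the transcribed sequence, the A box and, downstream of it, the B box. The factor TFIIIC binds these boxes and recruits TFIIIB, which places the polymerase, and a run of T ends the transcript. Protein-coding genes are transcribed by Pol II from other promoters. Many worm messenger RNAs are trans-spliced, so an annotated start can lie downstream of the site where transcription begins.

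Promoter intervals with a tRNA-type box had a higher median signal than those without one, and both medians lay below that of the whole list. The B box was searched as GTTCAANNC or GTTCGANNC on both strands within 100 bp of a summit, and 140 of 253 intervals held it (55.3%, Wilson 95% interval 49.2 to 61.3). Around all 26583 distinct protein-coding starts the same search found it in 3.84%, and in 4.4% of 201-bp windows over the nuclear genome. A match describes the letters in a window and is not by itself a binding site. The sequences shown compare a tRNA gene with 6 promoter intervals that hold both boxes, 2 with a box 1 letter away from the B box, and 1 without a B box. They are from the RefSeq WBcel235 genome (ce11), 5′ to 3′, and the capitals mark the A box and then the B box or the letters in its place.
F38G1.t2 (tRNA-Asp gene), chrX:489861-489939, minus strand: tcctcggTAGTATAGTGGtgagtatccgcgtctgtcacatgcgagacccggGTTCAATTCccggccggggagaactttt
sms-3, chrIII:1599125-1599206, plus strand: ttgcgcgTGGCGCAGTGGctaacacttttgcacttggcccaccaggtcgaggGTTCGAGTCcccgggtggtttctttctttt
vps-37, chrV:5592076-5592153, plus strand: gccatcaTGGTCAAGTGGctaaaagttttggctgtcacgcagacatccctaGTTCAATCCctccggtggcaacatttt
F02E8.4, chrX:4453271-4453349, plus strand: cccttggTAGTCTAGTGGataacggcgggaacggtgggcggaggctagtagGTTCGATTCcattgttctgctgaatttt
nhr-41, chrIV:1394272-1394353, plus strand: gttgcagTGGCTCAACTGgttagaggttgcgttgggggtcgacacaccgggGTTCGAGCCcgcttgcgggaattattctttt
hst-3.1, chrII:6168909-6168989, plus strand: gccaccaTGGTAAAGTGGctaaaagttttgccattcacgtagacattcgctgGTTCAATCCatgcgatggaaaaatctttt
col-40, chrII:1107390-1107469, plus strand: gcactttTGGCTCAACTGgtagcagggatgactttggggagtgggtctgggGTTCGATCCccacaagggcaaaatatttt
W08A12.2, chrV:3686054-3686133, minus strand: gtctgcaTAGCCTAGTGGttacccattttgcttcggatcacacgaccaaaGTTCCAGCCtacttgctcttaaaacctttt
D2096.7, chrIV:8375529-8375612, minus strand: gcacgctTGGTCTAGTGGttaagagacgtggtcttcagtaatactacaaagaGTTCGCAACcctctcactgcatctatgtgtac
rpl-3 (summit stretch, no B box), chrIII:3867560-3867640, plus strand: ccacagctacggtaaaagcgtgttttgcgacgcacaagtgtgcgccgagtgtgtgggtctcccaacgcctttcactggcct

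Read against the tRNA gene, the sms-3, vps-37, F02E8.4, nhr-41, hst-3.1 and col-40 sequences kept the boxes and their spacing, and not the stems around them. In F38G1.t2 all 4 positions flanking the B box could pair as a T arm and all 7 as an acceptor stem. In sms-3 these counts were 2 of 4 and 3 of 7, and in vps-37 they were 0 of 4 and 2 of 7. F02E8.4 had 2 of 4 and 2 of 7, and W08A12.2, with a 1-letter change in the B box, had 1 of 4 and 4 of 7. A run of TTTT began 16 bp past the B box in F38G1.t2, 18 bp past it in sms-3, 15 bp in vps-37, 16 bp in F02E8.4 and 17 bp in hst-3.1 and col-40. D2096.7 had no TTTT within 100 bp.

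The same arrangement held over the promoter intervals with a B box. An A box was found 20 to 80 bp upstream on the same strand in 121 of 140 (86.4%), against 446 of 463 tRNA gene intervals with a B box (96.3%). Of all 26583 protein-coding starts, 1020 had a B box and 29 had an A box and a B box together. The latter were 0.109% of all starts, against 121 of all 253 promoter intervals (47.8%). The A box began 43 to 47 bp before the B box in 110 of the 121, and 44 or 45 bp before it in 101. Where several A boxes matched, the one nearest 44 bp was taken, which favours this range. Among intervals with exactly 1 A box match the count was 105 of 116 (90.5%), against 371 of 407 tRNA gene intervals (91.2%) and 32.1% of the 28 transcript starts with both boxes and 1 match. The B box began a median of 36 bp past the nearest summit on its own strand (quartiles 15.5 and 47), and 39 bp past it at tRNA gene intervals (35 and 44). TTTT followed within 25 bp in 84 of 140, against 460 of 463 at tRNA gene intervals, and where found within 100 bp it began a median of 17 bp past the box in both sets. For this short word no background over protein-coding starts was taken.

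**Figure D1:**
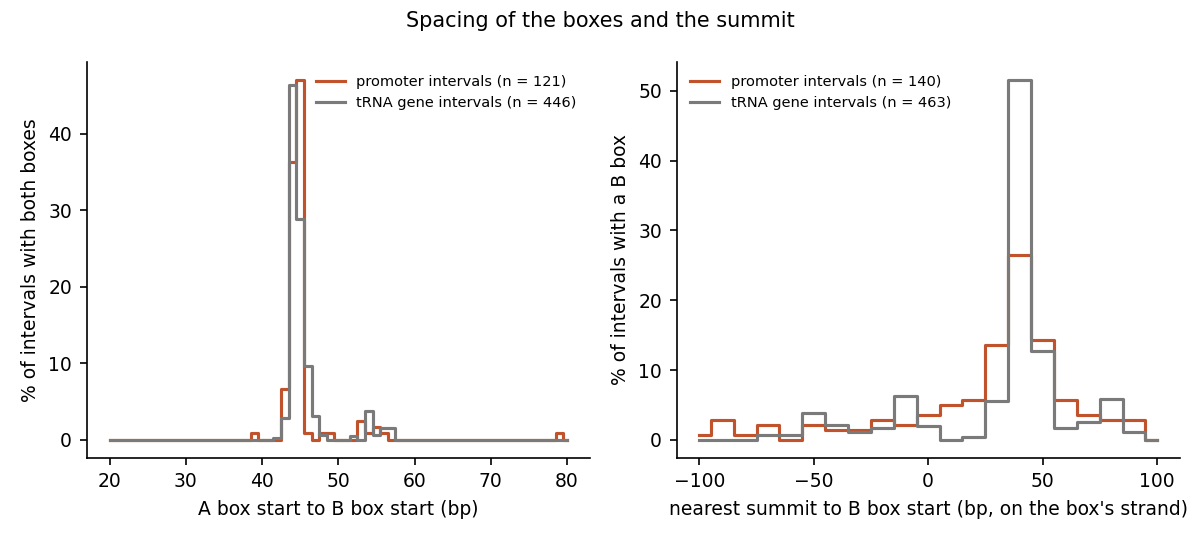
Left, distance from the A box to the B box (bp) as a percentage of the 121 promoter and 446 tRNA gene intervals with both boxes. Right, B box start from the nearest summit (bp, 10-bp bins) for the 140 promoter and 463 tRNA gene intervals with a B box. Both sets peak at 44 and 45 bp on the left, and on the right the promoter intervals spread wider around a median of 36 bp than the tRNA gene intervals around 39 bp.

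Few promoter intervals could form the full stems of a tRNA. Intervals that touch an annotated tRNA gene or tRNA pseudogene are not among them by the rule, and tRNA genes are annotated by their fold, so the choice of intervals fixes part of this difference. All 4 T arm pairs could form in 4 of 140 promoter intervals (2.86%, Wilson 95% interval 1.12 to 7.12) and in 451 of 463 tRNA gene intervals (97.4%, 95.5 to 98.5). The median was 2 pairs against 4, and for the acceptor stem 3 of 7 against 7. Boxes with at least 3 T arm and 5 acceptor pairs occurred in 5 of 253 promoter intervals, in 399 of 488 tRNA gene intervals and around 0.015% of protein-coding starts. The 5, named after their values were seen, were dpy-21 (952.7), nssp-13 (256.5), irld-51 (195.9), Y43F8C.11 (184.0) and Y22D7AL.16 (81.2), with the signal value in parentheses.

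**Figure D2:**
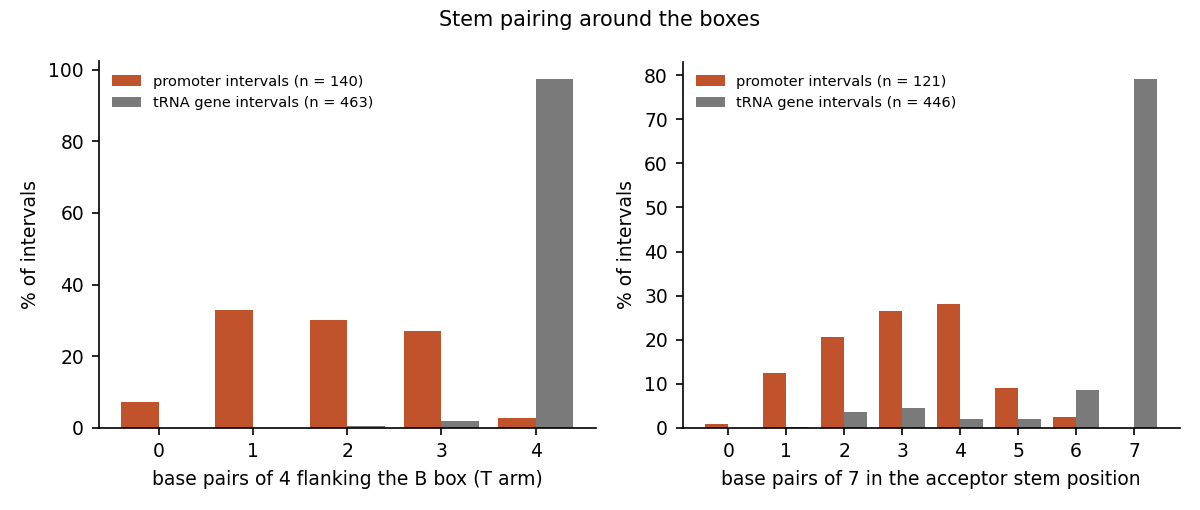
Percentage of intervals by the number of possible base pairs at the T arm (left, of 4, 140 promoter and 463 tRNA gene intervals) and at the acceptor stem (right, of 7, 121 and 446). All 4 T arm pairs could form in 2.86% of the promoter intervals and 97.4% of the tRNA gene intervals.

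Sequence likeness to annotated tRNA genes and tRNA pseudogenes was given by blastn, with no background taken over other promoters. In this search, the 100 bp either side of the highest summit matched an annotated tRNA gene or tRNA pseudogene in 67 of 89 summit-inside intervals with a B box, 6 of 80 without, 36 of 51 edge intervals with a B box and 11 of 33 without. Of the 120 best matches, 118 were to pseudogenes and 2 to tRNA-Arg genes, with a median identity of 84.1% over a median of 62 bp. A match to another promoter interval was found for 118 of 140 with a B box and 42 of 113 without. All 36-base words in the same stretch were unique in the genome in 173 of 253 promoter intervals, against 17 of 488 tRNA gene intervals. Of the 253 intervals, 3 were within 1 kb of an annotated Pol III gene (1.19%, Wilson 95% interval 0.404 to 3.43), a count that the rule limits, since it leaves out peaks at non-coding genes.

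Signal values are the authors' peak caller's score and were compared only within 1 list. Summit-inside intervals with a B box had a median of 256.5 (quartiles 157.2 and 546.4, n = 89), and those without had 79.4 (65.0 and 98.8, n = 80), a ratio of 3.23. The ratio was 3.50 in replicate 1 and 3.42 in replicate 2, so it moved little between the replicates beside its distance from 1. The quartile ranges did not overlap, while the full ranges did, from 60.8 to 4216 with a B box and from 59.97 to 5200 without. Edge intervals had medians of 347.6 with (n = 51) and 124.8 without a B box (n = 33), a ratio of 2.79 in the optimal list, 2.48 in replicate 1 and 2.78 in replicate 2. Intervals at tRNA genes had a median of 3237 and promoter intervals as a whole 175.7, against 354.7 over the whole list. No test was made, since intervals are not replicates and the libraries form 1 group. Among the 1061 strongest peaks the ratio turned to 0.639, with 33 summit-inside intervals with a B box and 4 without, among them W08A12.2 and rsf-1.

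**Figure D3:**
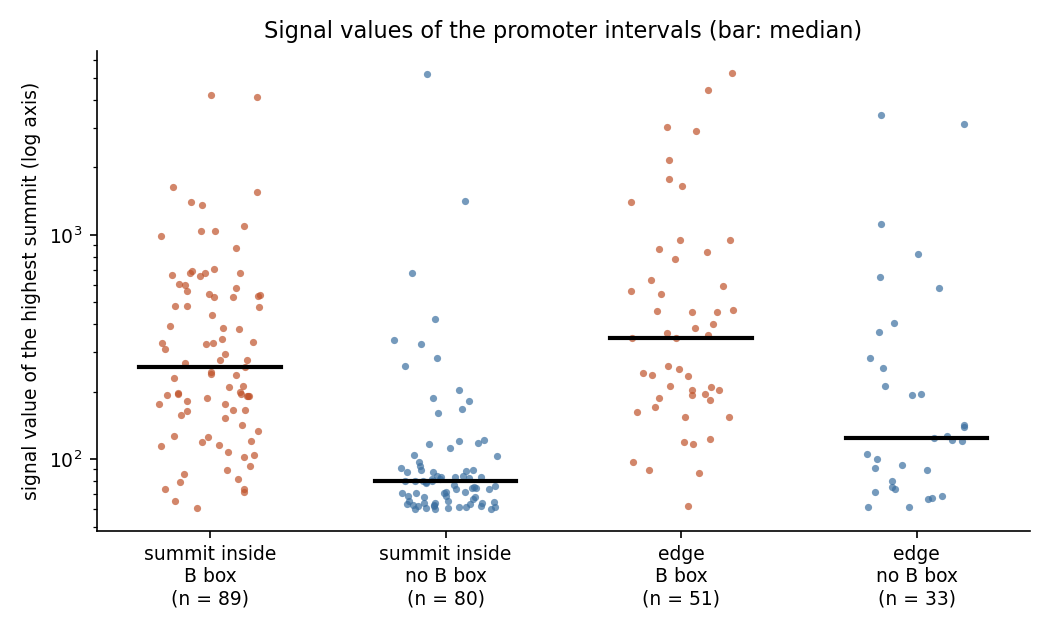
Signal value of the highest summit in each promoter interval (log axis) by summit position and B box, with 1 point per interval and a bar at the median. The medians are 256.5 and 79.4 for summit-inside intervals with and without a B box, and 347.6 and 124.8 for edge intervals.

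The share with a B box fell along the signal order. It was 53 of the 64 strongest promoter intervals (82.8%), 50 of the next 63 (79.4%), 29 of the following 63 (46.0%) and 8 of the 63 weakest (12.7%, Wilson 95% interval 6.58 to 23.1). Summits inside the window went the other way, from 35 of the 64 strongest to 53 of the 63 weakest. Above a signal value of 1000 there were 22 intervals, of which 17 had a B box and the other 5 had a box with 1 different letter and an A box 43 to 47 bp upstream. Around protein-coding starts with no B box, this looser pair was found in 0.102%. Below 100 there were 86 intervals, of which 14 had a B box, 5 the looser pair and 67 neither. The looser pair was defined after the values were seen. With a B box required within 50 bp of the summit, the share over all promoter intervals was 33.6% in place of 55.3%.

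A summit within 100 bp was found in both replicate lists for 246 of 253 intervals. The optimal list was drawn from these replicates for how alike their peaks rank, so agreement between them was selected for. Over intervals matched in both, Spearman's rho between the replicates' signal values was 0.949 with a B box (n = 139) and 0.637 without (n = 107). These are across intervals of the same 2 libraries and carry no p. Among the 2123 strongest peaks of each replicate, both replicates held 82 of 89 summit-inside intervals with a B box and 37 of 80 without. Depth is unknown, since the lists hold no read counts.

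**Figure D4:**
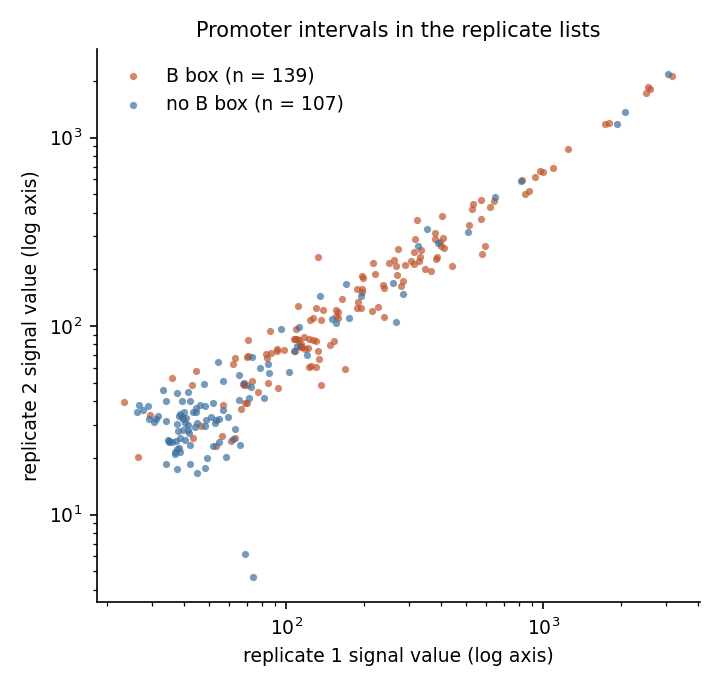
Signal value in replicate 2 against replicate 1 (both log axes) for the promoter intervals with a summit within 100 bp in both lists, 139 with and 107 without a B box. Intervals with a B box spread along the diagonal (rho 0.949), and most of those without crowd at its lower end (rho 0.637).

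Among summit-inside intervals, most summits without a B box lay upstream of the nearest start, and most with one lay in introns. Of the 80 summit-inside intervals without a B box, 63 had the highest summit upstream of the nearest start (78.8%, Wilson 95% interval 68.6 to 86.3), against 37 of 89 with a B box (41.6%, 31.9 to 52.0). Among edge intervals the counts were closer, 18 of 33 without a B box (54.5%) and 27 of 51 with one (52.9%). The highest summit was intergenic in 54 of 80 and 29 of 89, and intronic in 16 of 80 and 57 of 89. Starts on both strands within 500 bp of the highest summit occurred at 16 of 80 without and 2 of 89 with a B box. Of all distinct protein-coding starts, 2127 of 26583 had a start on the other strand within 500 bp, a share between these. That background was taken around starts and not around summits, and none was taken for upstream, intergenic or intronic position. The box lay on the strand of the gene in 77 of 140 intervals and on the opposite strand in 63. A width of exactly 600 bp was found in 51 of 80 summit-inside intervals without a B box, in 6 of 89 with one and in 5 of 488 tRNA gene intervals. Its part in the results was not tested.

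**Figure D5:**
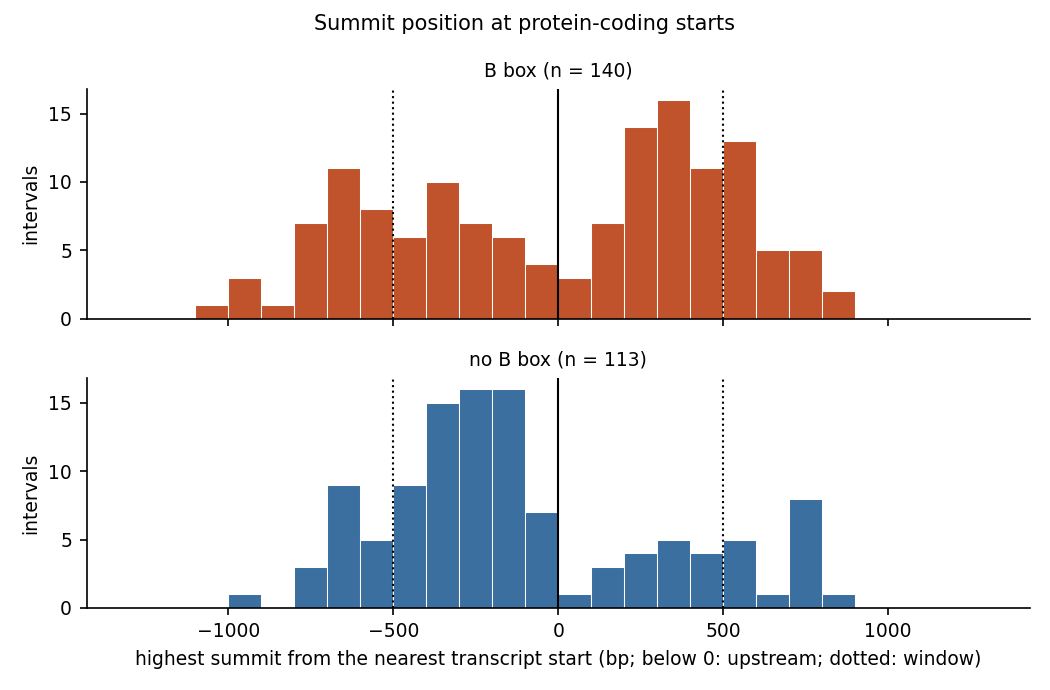
Number of promoter intervals by position of the highest summit relative to the nearest protein-coding start (bp, 100-bp bins, negative is upstream, dotted lines at 500 bp), for 140 intervals with and 113 without a B box. Inside the window, 63 of 80 intervals without a B box have the summit upstream, against 37 of 89 with one, and among edge intervals 18 of 33 against 27 of 51.

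Counted by gene, 176 of 19971 protein-coding genes had a member summit within 500 bp of a start (0.881%), 87 one with a B box (0.436%) and 93 one without (0.466%). At sms-3, which the annotation lists as a putative sphingomyelin synthase, 1 interval had signal values of 4216 in the optimal list, 2511 in replicate 1 and 1722 in replicate 2, with its summit in an intron 150 bp past a start. A neighbouring sms-3 interval had 4123, 2603 and 1818, and its B box lay beside a weaker summit (2926) of the same interval. Both sms-3 intervals ranked between 125 and 188 in every list.

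The nuclear hormone receptor gene nhr-41 had 1100 in the optimal list, 642 in replicate 1 and 461 in replicate 2, with the box in an intron on the strand of the gene. At hst-3.1, annotated as a sulfotransferase, the values were 989.7, 532.6 and 446.2, with the box in an intron on the opposite strand. The cuticle collagen gene col-40 had 871.1, 577.1 and 240.4, with the highest summit 436 bp upstream of the start. All 3 held the A box 44 or 45 bp before the B box. The chemoreceptor gene str-268 had 702.2, 405.1 and 293.4.

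Among the other strong summit-inside intervals with a B box, F19B2.7, which codes for a protein with a Lon proteolytic domain, had 1634 in the optimal list, 969.4 in replicate 1 and 666.4 in replicate 2. Y43F8B.17 had 1546, 930.4 and 618.5. T07D10.1 and ZK380.6 reached 1397 and 1039 with a B box that began 53 bp before the summit on its strand and no A box at the searched distance. Y65B4A.2 and Y43F8B.2 reached 1359 and 1042, each with the A box 45 bp before the B box. This Y43F8B.2 box lay within 100 bp of a weaker summit (396.4) of the interval and not of its highest. All 4 were past 1000 in the optimal list, as were F19B2.7 and Y43F8B.17.

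Of the summit-inside intervals without a B box, the strongest carried the looser pair. W08A12.2, annotated as neuropeptide-like, had 5200 in the optimal list, 3050 in replicate 1 and 2163 in replicate 2, and its summit lay 235 bp upstream of the start in an intron of W08A12.3. The 1-letter variant of the B box began 44 bp past that summit. At rsf-1, a Ras association domain gene, the values were 1408, 819.7 and 587.2, with the variant box 47 bp past the summit. The looser pair was also present at lgc-31, a ligand-gated ion channel family gene (338.8), and in 1 of the 2 gba-4 intervals (282.7).

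Neither a B box nor the looser pair was found at the next in order. Y17D7C.6 had 673.2 in the optimal list, 353.2 in replicate 1 and 327.2 in replicate 2. The prolyl-tRNA synthetase gene pars-2 had 422.6, 260.6 and 168.4, with the summit 322 bp upstream of the start. Its summit stretch matched a tRNA pseudogene at 83.1% over 71 bp and 7 other promoter intervals. F23A7.4 had 2 overlapping intervals with 325.3 and 186.5, the second gba-4 interval had 261.1, and fbxa-66, an F-box gene, had 202.7. At snu-23 (182.1) replicate 1 gave 69.9 and replicate 2 had no summit within 100 bp, and vps-41 had 167.4. The snu-23 and vps-41 stretches largely match each other as reverse complements. Of their 36-base words, 48.2% were unique in the genome at both. This share was 51.8% and 60.8% at F23A7.4, 51.8% at the second gba-4 interval and 43.98% at fbxa-66. It was 92.8% at Y17D7C.6 and 100% at pars-2, with a median of 100% over summit-inside intervals without a B box. The effect of repeated sequence on these signal values was not tested. Above the list's median, 3 intervals had neither a B box nor the looser pair, namely Y17D7C.6, pars-2 and the edge interval of sms-1 (577.9), the last named after its value was seen. This means only that the searched patterns were absent. The Y17D7C.6 stretch holds a word 1 letter away from the B box on its minus strand, and the sms-1 stretch holds an A box match.

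At the edges, the strongest interval of all was that of F02E8.4, a putative protein kinase gene, with 5289 in the optimal list, 3172 in replicate 1 and 2121 in replicate 2 and its summit 834 bp upstream. The interval of vps-37, whose product belongs to the ESCRT-I sorting complex, had 4400, 2556 and 1844, with the summit 613 bp upstream. D2096.7 (3439) and F59A1.18 (3112) had the looser pair. F22F1.2 (3025) had a B box without an A box, and Y59E1A.4 (2917) had both. The F22F1.2 interval was 1 of the 3 within 1 kb of an annotated Pol III gene, at 871 bp. All 6 summits lay outside the window, at 541 to 954 bp from the nearest start, so these intervals touch promoters only with an edge. The looser pair was present in 14 of 33 edge intervals without a B box and in 8 of 80 summit-inside ones.

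The 4 weakest summit-inside intervals were those of znfx-1, a germ granule helicase gene (59.965), hsp-90 (59.998), F54C9.9, a KRI1 homologue (60.1), and nol-10 (60.4). None held a B box or the looser pair, each was 600 bp wide, and each summit lay 219 to 431 bp upstream. F53E4.1 had 3 summits in 3 intervals (83.1 to 88.7), of which 2 overlap. Its strongest had 69.3 in replicate 1 and 6.17 in replicate 2, and its middle one (83.7) had no summit within 100 bp in either replicate.

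Ribosomal protein genes had the highest share of the 15 gene lists, with a member summit within 500 bp of a start at 9 of 78 genes (11.5%) against 0.466% of all genes for intervals without a B box. The 9 had no B box, and their signal values ran from 63.4 to 117.4. The intervals of rpl-3 (117.2 in the optimal list, 65.3 in replicate 1 and 55.3 in replicate 2) and rpl-35 (117.4, 73.0 and 47.5) were highest, ahead of rpl-18A (92.7) and rpl-15 (81.4). For rpl-18A and 2 other genes of the 9, another gene's start was nearer to the summit. Aminoacyl-tRNA synthetases had 2 of 33 genes, pars-2 and ears-2 (64.8), and translation factors 2 of 41, eif-3.C (74.3) and ife-3 (62.5), all without a B box, though the pars-2 stretch resembles a tRNA pseudogene. One heat shock gene of 61, hsp-90, and 1 respiration gene of 33, cox-5B (80.2), were likewise without one. Other genes share these windows, so a summit is not assigned to the listed gene alone.

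Nuclear hormone receptors had 4 of 269 genes with a summit (1.49%), nhr-41, nhr-59 (379.2), nhr-212 (104.0) and nhr-230 (60.8), all with a B box, against 0.436% of all genes for such intervals. Chemoreceptor genes were listed by the symbols str-, srh-, sri-, srx-, srw-, srt- and srg-. They had 4 of 806 (0.496%, against 0.881% of all genes with any member summit). Of these, str-268, srh-284 (678.9) and srh-301 (276.7) had a B box and srg-28 (97.4) did not. Other families, such as srd-, were not listed. The intervals of srd-66 (563.0) and srd-68 (438.8), named after their values were seen, had a summit inside and a B box. Collagen and cuticle genes had 1 of 194, col-40. No summit was found in the windows of the 12 Pol III machinery genes, 16 Pol I and Pol II subunit genes, 81 histone, 45 spliceosome, 33 proteasome, 31 major sperm protein and 6 vitellogenin genes. At the 0.881% of all genes each of these lists would hold less than 1 gene, so the zeros say nothing about the lists. All lists were made by gene symbol and can miss genes of their kind. The spliceosome list took the symbols snr-, prp-, sfa-, uaf-, rsp-, rnp- and snrp-. It did not hold snu-23, which had a summit-inside interval (182.1).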

How the data were processed

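The deposited files are narrowPeak lists on ce11. The signal value is a score deposited by the authors, with no fixed range, and the deposited −log10 q values, tied at the top of the list, were not used for ranking. Per the deposited descriptions of the files, replicate lists were made with a control alignment, and the optimal list was drawn from them by the irreproducible discovery rate. No source used here gives the aligner, caller, versions or threshold. Control libraries were not analysed here.

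Genes, starts and sequence came from RefSeq WBcel235. Peaks sharing an interval were merged, the highest summit gave the signal, and intervals were named by the nearest protein-coding start. Replicate values are those of the summit within 100 bp. The A box was matched by its usual consensus, TTTT as terminator, and blastn (BLAST+ 2.17.0) used a word size of 7 and an E value of 1e-05. Distances are along the gene or box strand, coordinates 1-based. Wilson 95% intervals cover counting error over intervals only, not variation between worms. Scripts (Python 3.11.15) were tested on simulated data. Named were the 12 strongest summit-inside intervals with and without a B box, the 6 strongest edge and 4 weakest summit-inside intervals, up to 4 members of each list and genes with at least 3 summits. Members and lists were chosen with earlier results of these data known. The 1-letter box, the A to B ranges, stem pairing, signal limits and 600-bp width were chosen after the values were seen. Alternatives changed the list, window, overlap and box.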

Additional observations from a re-analysis of the deposited data

How the results depend on the processing

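Of 81 values under 15 alternatives, 55 kept within the counting interval, the replicate spread or 1.5 times the count. Among the 1061 strongest peaks there were 71 intervals, 52.1% with a summit inside; 83.1% of all, 89.2% of summit-inside and 76.5% of edge intervals had a B box, and the ratio of medians turned to 0.639, with 4 summit-inside intervals without a box left. A window of 250 bp gave 43.2% with a summit inside. A window of 1000 bp gave 385 intervals, 85.7% with a summit inside and a ratio of 2.63. Requiring 50% overlap gave 166 intervals, 97.6% with a summit inside, a share that this rule itself favours. Of the 4 edge intervals left, 3 had a B box (75%). A B box within 50 bp was found in 33.6% of all, 33.1% of summit-inside and 34.5% of edge intervals, with a ratio of 2.57. Within 200 bp the share was 62.8%, and anywhere in the interval 65.2%, with 76.2% at the edges. With an A box also required the shares were 47.8% and 50%. Counting the 1-letter variant, an alternative chosen after seeing the data, gave 64.0% overall and 77.4% at the edges. With either replicate list alone, cut to 2123 peaks, the summit-inside share with a B box ran from 51.4 to 60.1% and the ratio from 2.90 to 3.29. No paired analysis was possible because there is 1 group. Depth is unknown and limits statements on weak intervals, whose values lie near the list's lowest.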

Other observations

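Chromosome V carried 74 of the 253 promoter intervals (29.2%) and 24.1% of all protein-coding starts. Per 1000 starts, the intervals with a B box ran from 2.76 on IV to 6.88 on V, and those without from 2.47 on X to 5.77 on III. On X, 21 intervals had a B box and 9 had none. The GC content of the 201 bp around the highest summit had a median of 41.3% with a B box and 40.8% without, and 45.3% at tRNA gene intervals. The soft-masked share of the same stretch had a median of 38.3% with a B box, 30.8% without and 20.6% at tRNA gene intervals.

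The coding sequence held the highest summit in 5 of 253 promoter intervals and an annotated untranslated region in 11. Matches by blastn to an annotated non-coding gene other than tRNA were found for 72 of 140 intervals with a B box and 30 of 113 without. The searched genes included long non-coding and antisense RNA genes, and no background was taken over other promoters. The counts are therefore not a measure of likeness to Pol III genes.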
